A study of Macaca mulatta with 12 samples.

Results

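The genes described here carry the unfolded protein response and the integrated stress response, programmes with which a cell meets misfolded protein in the endoplasmic reticulum (ER) and shortages of amino acids or oxygen. They were chosen by symbol: HSPA5, DDIT3, ATF4, XBP1, HERPUD1, TRIB3, SDF2L1, PDIA4, ASNS and CHAC1. Of these 10 symbols 9 were found among the 16745 of the table, and PDIA4 is not analysed here. All 9 passed the filter on low values and were tested among 12084 genes.

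RNA was sequenced from rhesus macaque (Macaca mulatta) cultures that the labels call iPSC-derived cardiomyocytes. They were grown as a flat monolayer (2D) or as engineered heart tissue (EHT, 3D), and both formats shared a medium of RPMI with B27 and insulin. Cultures of the normoxia groups were compared with cultures of the hypoxia groups, which spent 24 hours in anaerobic pouches and then 24 hours in refreshed medium. Each of the 4 groups (monolayer normoxia, monolayer hypoxia, EHT normoxia, EHT hypoxia) had 3 libraries. The labels do not say at which point RNA was taken, whether normoxia cultures had the same medium change, which stem cell line was used or whether replicates were separate differentiations. Oxygen and medium change cannot be told apart, and p-values measure the spread between these libraries, which may be technical.

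In the unfolded protein response, the sensors PERK, IRE1 and ATF6 sit in the ER membrane. PERK phosphorylates the translation factor eIF2, IRE1 splices the XBP1 transcript, and ATF6 is released as a transcription factor. Together they raise chaperones such as HSPA5 and the machinery that removes misfolded protein. Phosphorylated eIF2, which other kinases produce in response to amino acid loss or viral RNA, slows protein synthesis in general while the transcription factor ATF4 is translated. ATF4 then induces DDIT3 (CHOP) and genes of amino acid supply, and this branch is called the integrated stress response. Expression tables show transcript levels. They do not show eIF2 phosphorylation, XBP1 splicing or ATF6 cleavage.

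Libraries held 4154346 to 11298841 reads. Markers of the labelled cell type were scarce: 7 of 8 cardiomyocyte markers were in the table and together took 0.0376 to 0.396% of the reads in monolayer libraries and 0.00109 to 0.0516% in EHT libraries, while 8 of 10 fibroblast markers took 3.31 to 7.02% over all libraries. Epithelial markers, 5 of 7 in the table, took 0.0865 to 0.472% in monolayer normoxia and 0.000751 to 0.00730% in the other groups. Smooth muscle (0.133 to 0.579%), endothelial (0.00158 to 0.0207%) and immune markers (0.000984 to 0.0153%) were present in every library. Of the 3 pluripotency markers in the table POU5F1 and LIN28A had 0 reads in all groups. SOX2 took 0.000531 to 0.00219% in monolayer normoxia and 0 to 0.000467% in the other groups. EHT hypoxia replicate 3 stood apart within its group with 0.00145% of reads in cardiomyocyte markers, against 0.0412% and 0.0516% in the other EHT hypoxia libraries. That share lay within the range of the EHT normoxia libraries, 0.00109 to 0.0135%. EHT hypoxia replicate 3 received the lowest weight, 0.177, when limma weighted libraries by their spread. These marker levels moved with the groups, and their part in the results below was not tested. In bulk RNA, fewer cells of a type and less RNA per cell cannot be told apart.

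Levels are given on the scale that was tested, the deposited log2 values after each library was centred on its median (centred value). Where it matters they are also given as CPM, reads scaled to the library's total. The scales differ because library composition differed: the 10 genes with most reads took 9.29 to 10.7% of the reads in monolayer normoxia and 20.2 to 20.6% in monolayer hypoxia, with 13.1 to 19.1% in EHT normoxia and 16.8 to 19.1% in EHT hypoxia. Scaling by library totals in place of medians moved the median difference of all genes between hypoxia and normoxia from 0.07 to -0.62 in monolayer and from 0.03 to -0.16 in EHT, and that between EHT and monolayer in normoxia from 0.07 to -0.34. Levels of different genes were not compared, since no transcript lengths were used.

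DDIT3, the transcription factor CHOP that is linked to cell death after prolonged ER stress, showed the largest log2 difference with hypoxia in monolayer of the 9 genes. In monolayer normoxia replicates 1, 2 and 3 its centred values were 7.55, 8.16 and 8.36, and in monolayer hypoxia they were 12.03, 12.27 and 11.89. In EHT normoxia they were 9.63, 9.78 and 9.77, and in EHT hypoxia 11.86, 11.99 and 12.16. Every hypoxia library lay above every normoxia library, and EHT normoxia lay wholly above monolayer normoxia, while the 2 hypoxia groups overlapped. DDIT3 rose with hypoxia by 4.04 ± 0.19 in monolayer (log2 difference ± SE, n = 3 per group, limma adjusted p = 7.17e-08) and by 2.28 ± 0.19 in EHT (adjusted p = 3.26e-06; 2.20 without EHT hypoxia replicate 3). In CPM the group means differed 10.1-fold in monolayer and 4.08-fold in EHT, where those of HSPA5 differed 4.53-fold (2.80-fold without EHT hypoxia replicate 3).

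The hypoxia response of DDIT3 differed between the cultures (interaction -1.76 ± 0.26, limma adjusted p = 6.64e-04, and -1.83 without EHT hypoxia replicate 3). The groups started apart, with DDIT3 higher in EHT than in monolayer normoxia by 1.70 ± 0.19 (adjusted p = 2.08e-05). In hypoxia they were close: 485, 533 and 423 CPM in monolayer and 470, 491 and 516 CPM in EHT, a difference of -0.06 ± 0.19 (adjusted p = 0.828). On the deposited values, without centring, the interaction stood at -1.06 (adjusted p = 0.361) and the difference in normoxia at 0.96 (adjusted p = 0.117).

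ATF4, the transcription factor upstream of DDIT3, TRIB3 and ASNS, rose to a like extent in both cultures on the centred values. Its centred values were 11.75, 12.35 and 12.56 in monolayer normoxia and 13.57, 13.72 and 13.48 in monolayer hypoxia. EHT normoxia libraries lay close together, from 11.97 in replicate 3 to 12.01 in replicate 2 (563, 577 and 627 CPM), and EHT hypoxia libraries stood at 13.12, 13.34 and 13.45. The difference with hypoxia was 1.37 ± 0.19 in monolayer (limma adjusted p = 7.99e-05) and 1.31 ± 0.19 in EHT (adjusted p = 1.97e-04; 1.24 without EHT hypoxia replicate 3), and the interaction was -0.06 ± 0.26 (adjusted p = 0.897). In CPM the means differed 1.52-fold in monolayer and 2.06-fold in EHT. The monolayer difference was not called after quantile normalization (0.35, adjusted p = 0.154) or on deposited values (0.82, adjusted p = 0.220). The interaction was 0.76 after quantile normalization (adjusted p = 0.0571), 0.64 on deposited values (adjusted p = 0.626) and 0.41 under library totals (adjusted p = 0.227). Between the formats ATF4 differed by -0.23 ± 0.19 in normoxia (adjusted p = 0.354) and by -0.29 ± 0.19 in hypoxia (adjusted p = 0.244). Leaving out monolayer normoxia replicate 1 took the difference in normoxia past the threshold (-0.46, adjusted p = 0.0271), as it did when libraries were scaled by their totals (-0.59, adjusted p = 0.0128) or quantile normalized (-0.75, adjusted p = 0.00684).

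XBP1, whose spliced transcript encodes the transcription factor of the IRE1 branch, rose by similar amounts in both cultures on the centred values as well. Monolayer normoxia libraries stood at 10.19, 10.27 and 10.80 and monolayer hypoxia libraries at 11.21, 11.60 and 11.21. EHT normoxia libraries stood at 10.97, 10.92 and 10.86 and EHT hypoxia libraries, the closest group of this gene, at 11.85, 11.80 and 11.82. The order from low to high was monolayer normoxia, EHT normoxia, monolayer hypoxia, EHT hypoxia, and no neighbouring groups overlapped. Hypoxia raised XBP1 by 0.92 ± 0.16 in monolayer (limma adjusted p = 5.34e-04) and by 0.91 ± 0.16 in EHT (adjusted p = 9.63e-04). Under library totals the monolayer difference was 0.19 (adjusted p = 0.297), since in CPM monolayer normoxia (219, 235 and 319) and monolayer hypoxia (273, 335 and 264) overlapped. The EHT difference under library totals was 0.64 (adjusted p = 0.00462). The interaction was 0.45 under library totals (adjusted p = 0.121), 0.28 after quantile normalization (adjusted p = 0.401) and 0.69 without centring (adjusted p = 0.585).

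HSPA5, the ER lumen chaperone BiP that also holds the stress sensors inactive, varied widely within EHT hypoxia. Its centred values were 13.18, 12.90 and 13.88 in monolayer normoxia, 14.36, 14.54 and 14.62 in monolayer hypoxia and 13.82, 13.72 and 13.74 in EHT normoxia. In EHT hypoxia replicates 1, 2 and 3 they were 14.89, 15.90 and 17.11, or 3848, 7416 and 16041 CPM. The 3 EHT hypoxia libraries lay above all other libraries and far apart from each other, whereas the EHT normoxia libraries lay close together. HSPA5 rose with hypoxia in EHT by 2.21 ± 0.42 (limma adjusted p = 0.00147), and by 1.64 without EHT hypoxia replicate 3 (adjusted p = 8.14e-04).

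In monolayer HSPA5 differed by 1.19 ± 0.42 (limma adjusted p = 0.0342). That call was lost when any of monolayer normoxia replicates 1 and 2 or monolayer hypoxia replicates 1, 2 and 3 was left out (adjusted p = 0.0618 to 0.122), and also under library totals (0.45, adjusted p = 0.332), on deposited values (0.64, adjusted p = 0.383) and after quantile normalization (0.09, adjusted p = 0.858). In CPM monolayer normoxia (1763, 1461 and 2709) and hypoxia (2448, 2582 and 2822) overlapped. HSPA5 was higher in EHT than in monolayer in hypoxia by 1.46 ± 0.42 (adjusted p = 0.0161), 0.89 without EHT hypoxia replicate 3 (adjusted p = 0.0347) and not called without monolayer hypoxia replicate 1 (1.38, adjusted p = 0.0540). In normoxia the formats differed by 0.44 ± 0.42 (adjusted p = 0.434). The interaction was 1.02 ± 0.60 (adjusted p = 0.236), 0.45 (adjusted p = 0.424) without EHT hypoxia replicate 3 and 1.56 (adjusted p = 0.0302) without EHT hypoxia replicate 1.

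SDF2L1, an ER lumen protein that works with HSPA5, was called in neither hypoxia comparison. The gene had few reads, 62 to 409 per library. Centred values were 6.98, 6.80 and 6.95 in monolayer normoxia and 6.58, 6.38 and 6.52 in monolayer hypoxia. In EHT they were 8.04, 8.27 and 8.29 in normoxia and 6.87, 8.25 and 9.70 in hypoxia. In CPM monolayer normoxia stood at 20.9, 18.8 and 21.0 and monolayer hypoxia at 8.77, 7.24 and 8.85, without overlap. Under the 5 library scalings described below the monolayer difference ran from -1.11 to -0.29 and was called under 0. The median of all genes under library totals was -0.62. On centred values monolayer hypoxia lay wholly below monolayer normoxia, by 0.42 ± 0.48, which did not pass the test (-0.42, limma adjusted p = 0.513). That SE came from all 4 groups. The SD was 0.095 in monolayer normoxia, 0.10 in monolayer hypoxia and 1.41 in EHT hypoxia. EHT hypoxia libraries lay on both sides of EHT normoxia (0.07 ± 0.48, limma adjusted p = 0.927). Without EHT hypoxia replicate 3 the EHT difference was -0.64 (adjusted p = 0.0972).

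SDF2L1 differed between formats. It was higher in EHT by 1.78 ± 0.48 in hypoxia (limma adjusted p = 0.0113; 1.07, adjusted p = 0.0134, without EHT hypoxia replicate 3). In normoxia it was higher by 1.29 ± 0.48 (adjusted p = 0.0460), and that call was lost whenever any library other than EHT hypoxia replicates 1 and 3 was left out (adjusted p = 0.0559 to 0.109). It was also lost with median-of-ratios (1.19, adjusted p = 0.0601), library totals (0.92, adjusted p = 0.119), no centring (0.56, adjusted p = 0.401) and the stricter filter (1.23, adjusted p = 0.0552).

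HERPUD1, an ER membrane protein of the degradation pathway for misfolded proteins, rose with both hypoxia and EHT. Its centred values were 9.24, 9.40 and 10.18 in monolayer normoxia and 11.17, 11.59 and 11.43 in monolayer hypoxia. In EHT normoxia they were 11.09, 11.21 and 10.98, and in EHT hypoxia 12.19, 12.65 and 13.45. Monolayer normoxia was lowest and EHT hypoxia highest, with no overlap with the groups between, and the 2 middle groups, monolayer hypoxia and EHT normoxia, overlapped. Hypoxia raised HERPUD1 by 1.79 ± 0.29 in monolayer (limma adjusted p = 3.04e-04) and by 1.67 ± 0.29 in EHT (adjusted p = 8.09e-04; 1.33 without EHT hypoxia replicate 3). It was higher in EHT by 1.48 ± 0.29 in normoxia (adjusted p = 0.00148) and by 1.37 ± 0.29 in hypoxia (adjusted p = 0.00290; 1.03 without EHT hypoxia replicate 3). On deposited values the difference in normoxia was 0.75 (adjusted p = 0.238).

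**Figure D1:**
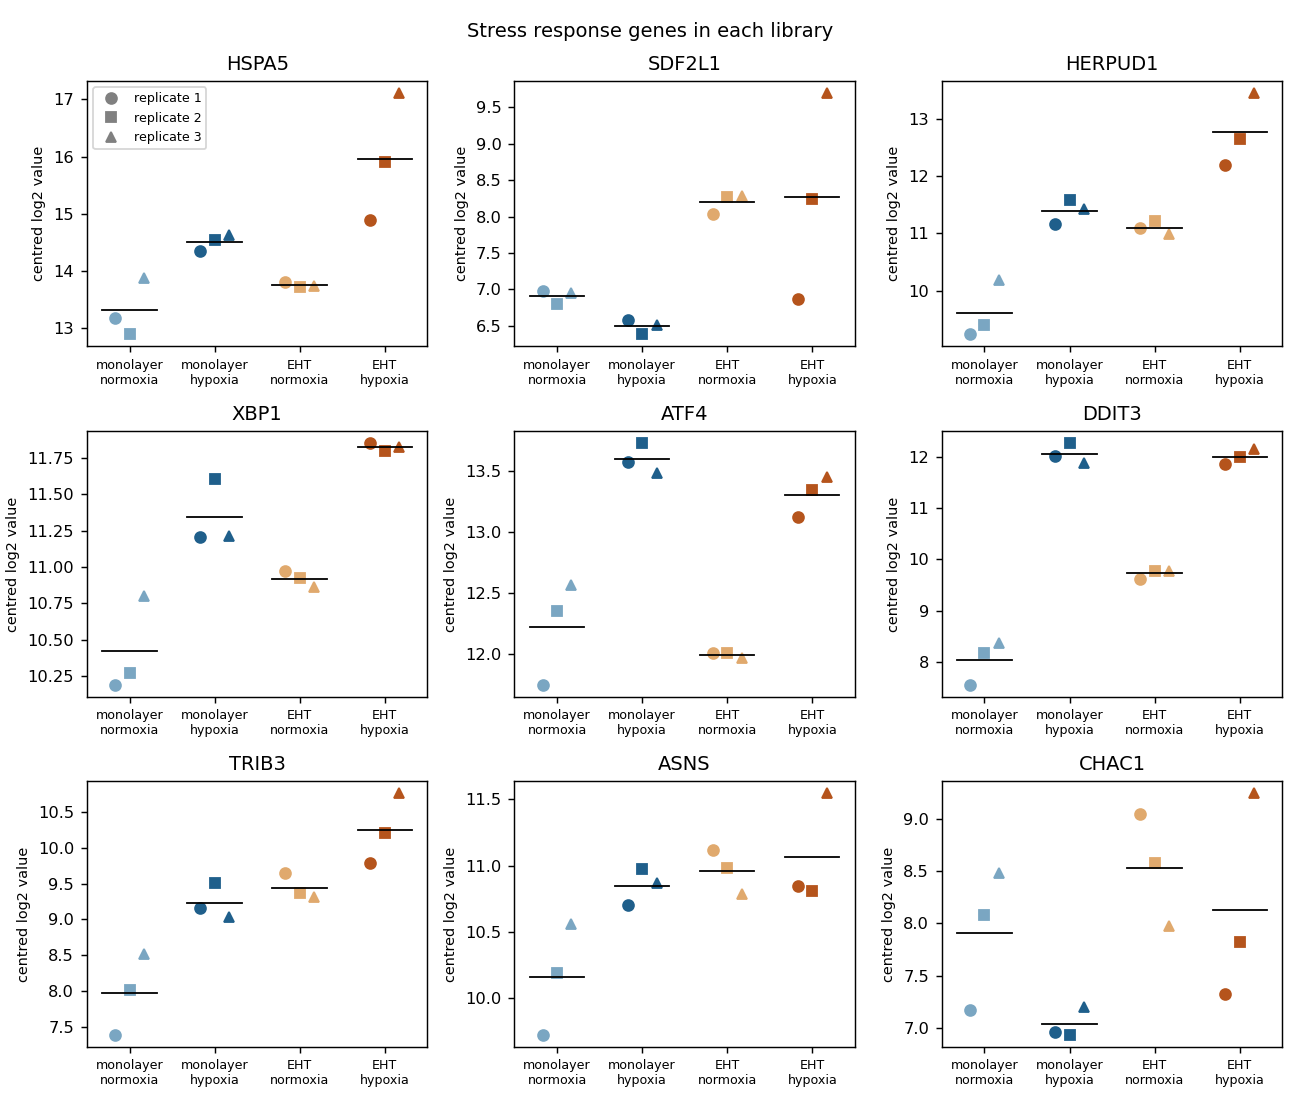
Centred log2 value (y axis) of each of the 9 genes in the 12 libraries, by group (x axis); marker shapes are replicates and the horizontal line is the group mean. DDIT3, ATF4, XBP1 and HERPUD1 lie higher in every hypoxia library than in the normoxia libraries of the same culture, CHAC1 and SDF2L1 do not, and EHT hypoxia replicate 3 is highest for HSPA5 at 17.11.

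TRIB3, a pseudokinase induced by ATF4 and CHOP that dampens their activity, had centred values of 7.39, 8.01 and 8.52 in monolayer normoxia and 9.16, 9.51 and 9.04 in monolayer hypoxia. In EHT it stood at 9.64, 9.37 and 9.31 in normoxia and at 9.79, 10.20 and 10.76 in hypoxia. As for HERPUD1, monolayer normoxia was lowest, EHT hypoxia highest and the groups between overlapped. TRIB3 rose with hypoxia in monolayer by 1.26 ± 0.28 (limma adjusted p = 0.00256), with 0.54 (adjusted p = 0.0857) under library totals and 0.71 (adjusted p = 0.283) on deposited values. In EHT it rose by 0.81 ± 0.28 (adjusted p = 0.0384), and it was 0.55 (adjusted p = 0.109) without EHT hypoxia replicate 3. That call was also lost without monolayer normoxia replicate 2, monolayer hypoxia replicate 1, EHT hypoxia replicate 2 or any EHT normoxia library (adjusted p = 0.0501 to 0.0991). TRIB3 was higher in EHT by 1.47 ± 0.28 in normoxia (adjusted p = 0.00123; 0.73, adjusted p = 0.248, without centring) and by 1.01 ± 0.28 in hypoxia (adjusted p = 0.0126; 0.76, adjusted p = 0.0391, without EHT hypoxia replicate 3 and 0.91, adjusted p = 0.0528, without monolayer hypoxia replicate 3).

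ASNS, the enzyme that makes asparagine and a standard ATF4 target, passed the test with hypoxia in monolayer and not in EHT. Its centred values were 9.73, 10.19 and 10.56 in monolayer normoxia and 10.70, 10.97 and 10.87 in monolayer hypoxia. EHT normoxia stood at 11.12, 10.98 and 10.78 and EHT hypoxia at 10.84, 10.81 and 11.54. The 3 groups other than monolayer normoxia overlapped. ASNS rose with hypoxia in monolayer by 0.69 ± 0.22 (limma adjusted p = 0.0229), a call lost when monolayer normoxia replicate 1 or either of monolayer hypoxia replicates 2 and 3 was left out (adjusted p = 0.0611 to 0.104) and turned to -0.05 (adjusted p = 0.852) under library totals. In EHT the difference with hypoxia was 0.11 ± 0.22 (adjusted p = 0.757). ASNS was higher in EHT in normoxia by 0.80 ± 0.22 (adjusted p = 0.0122), and leaving out monolayer normoxia replicate 1 gave 0.59 (adjusted p = 0.0518). That difference was also not called under library totals (0.44, adjusted p = 0.0830), after quantile normalization (0.51, adjusted p = 0.0648) or without centring (0.07, adjusted p = 0.933). In hypoxia the formats differed by 0.22 ± 0.22 (adjusted p = 0.465). The interaction was -0.58 ± 0.32 (adjusted p = 0.201) and -0.82 without EHT hypoxia replicate 3 (adjusted p = 0.0306).

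CHAC1, which degrades glutathione, had lower means in hypoxia and only 86 to 534 reads per library. Its centred values were 7.17, 8.08 and 8.48 in monolayer normoxia and 6.96, 6.94 and 7.20 in monolayer hypoxia, 9.04, 8.58 and 7.97 in EHT normoxia, and 7.33, 7.82 and 9.24 in EHT hypoxia. The difference with hypoxia was -0.88 ± 0.44 in monolayer (limma adjusted p = 0.125) and -0.40 ± 0.44 in EHT (adjusted p = 0.522). In CPM, monolayer normoxia stood at 24.3, 49.3 and 63.0 and monolayer hypoxia at 12.2, 11.4 and 15.1, without overlap, and under library totals CHAC1 fell by 1.58 (adjusted p = 0.00598). It was also called lower on deposited values (-1.43, adjusted p = 0.0186). Under library totals the median of all genes was -0.62 and 49.8% of all genes were called lower. On deposited values these were -0.48 and 19.9%. Leaving out monolayer normoxia replicate 1 gave -1.25 (adjusted p = 0.0474). On centred values CHAC1 was highest of all libraries in EHT hypoxia replicate 3. Leaving out that library gave -0.96 in EHT (limma adjusted p = 0.0416) and adjusted p = 0.0317 in monolayer. Between formats CHAC1 differed by 0.62 ± 0.44 in normoxia (adjusted p = 0.284) and 1.10 ± 0.44 in hypoxia (adjusted p = 0.0683; 1.50, adjusted p = 0.0213, without EHT hypoxia replicate 1).

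Counted by comparison, hypoxia in monolayer raised 7 of the 9 genes and lowered 0, with a median difference of 1.19. Over all 12084 genes 46.5% were called, 27.8% higher and 18.6% lower, and the median was 0.07. In EHT hypoxia raised 6 of 9 and lowered 0, with a median of 0.91, against 35.5% of all genes called, 19.5% higher and 16% lower, and a median of 0.03. Without EHT hypoxia replicate 3 it raised 5 (DDIT3, ATF4, HERPUD1, HSPA5 and XBP1) and lowered 1 (CHAC1). Those stand beside 24.7% of all genes called higher and 19.3% lower. EHT exceeded monolayer for 6 of 9 in normoxia (DDIT3, TRIB3, HERPUD1, ASNS, XBP1 and SDF2L1), where 41.2% of all genes were called, 22.8% higher and 18.5% lower. In hypoxia EHT exceeded monolayer for 5 of 9 (HERPUD1, SDF2L1, TRIB3, HSPA5 and XBP1), where 38.1% were called, 18.4% higher and 19.7% lower. In both comparisons 0 of the 9 were called lower. Hypoxia and normoxia libraries did not overlap for 8 of the 9 genes in monolayer (7 wholly above and 1 below; 62% of all genes did not overlap and 35.2% lay wholly above) and for 6 in EHT (6 above; 43.5% and 23.6% of all genes). EHT and monolayer libraries did not overlap for 6 of 9 in normoxia (6 above; 55.5% and 31.1% of all genes) and for 7 in hypoxia (6 above and 1 below; 50.8% and 24.4% of all genes). Leaving out a library lowered the count of calls between formats in hypoxia to 3 without monolayer hypoxia replicate 1 or 3. Over all genes that count ran from 3401 to 4683 when 1 library was left out.

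The XBP1 difference between formats was small, 0.50 ± 0.16 in normoxia (limma adjusted p = 0.0259) and 0.48 ± 0.16 in hypoxia (adjusted p = 0.0324). The first was lost when replicate 1 or 2 of either normoxia group was left out (adjusted p = 0.0650 to 0.0963) and the second without monolayer hypoxia replicate 1 or 3 or any EHT hypoxia library (adjusted p = 0.0508 to 0.114). In normoxia the XBP1 difference was also not called under library totals (0.13, adjusted p = 0.496) or after quantile normalization (0.19, adjusted p = 0.354), and without centring it turned to -0.24 (adjusted p = 0.732). In hypoxia it was not called without centring (0.45, adjusted p = 0.652). For the interaction 1 of 9 genes, DDIT3, was called, lower, against 24.5% of all genes called, 14.1% lower and 10.3% higher. The comparisons share groups, so their counts are not independent of each other.

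**Figure D2:**
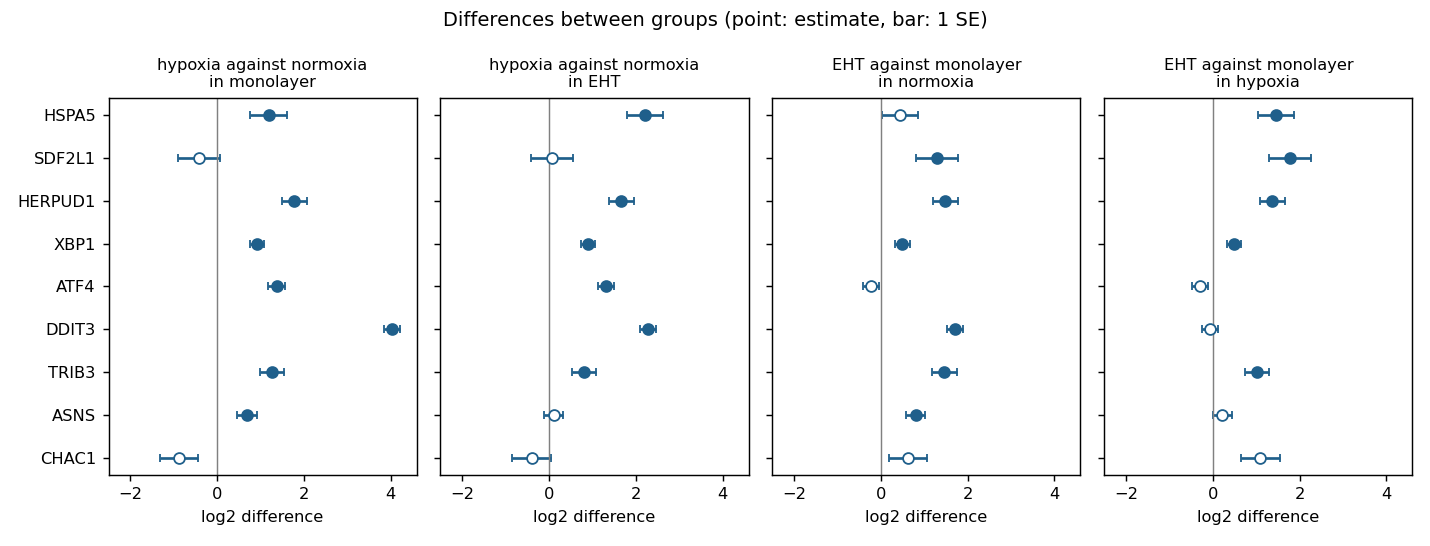
Log2 difference (x axis) of the 9 genes (y axis) in the 4 comparisons of groups. The bar is 1 standard error, from the spread of a gene over all 4 groups, n = 3 per group. Filled points passed an adjusted p of 0.05. DDIT3 stands apart in monolayer hypoxia at 4.04 and lies beside HSPA5 in EHT hypoxia at 2.28 and 2.21, and open points mark SDF2L1 and CHAC1 in both hypoxia panels.

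How far these counts rest on the scaling of libraries was examined with 5 scalings, which were centring, median-of-ratios, quantile normalization, library totals and the values as deposited. DDIT3 and HERPUD1 were called higher with hypoxia under all 5 in both cultures, with ranges of 3.31 to 4.04 and 1.05 to 1.79 in monolayer and of 2.00 to 2.43 and 1.40 to 1.82 in EHT. HSPA5 and ATF4 were called under all 5 in EHT, at 1.44 to 2.36 and 1.04 to 1.46. In monolayer HSPA5 was called under 2 and ATF4 under 3. XBP1 was called under 2 in monolayer and 4 in EHT, TRIB3 under 3 and 2, and ASNS under 2 and 0. SDF2L1 was called under 0 of 5 in either culture, and CHAC1 was called lower under 2 in monolayer and 0 in EHT. For the formats in normoxia, DDIT3, HERPUD1 and TRIB3 were called higher in EHT under 4 of 5, and XBP1, SDF2L1 and ASNS under 2. For the formats in hypoxia, HSPA5, HERPUD1 and SDF2L1 were called higher in EHT under all 5.

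**Figure D3:**
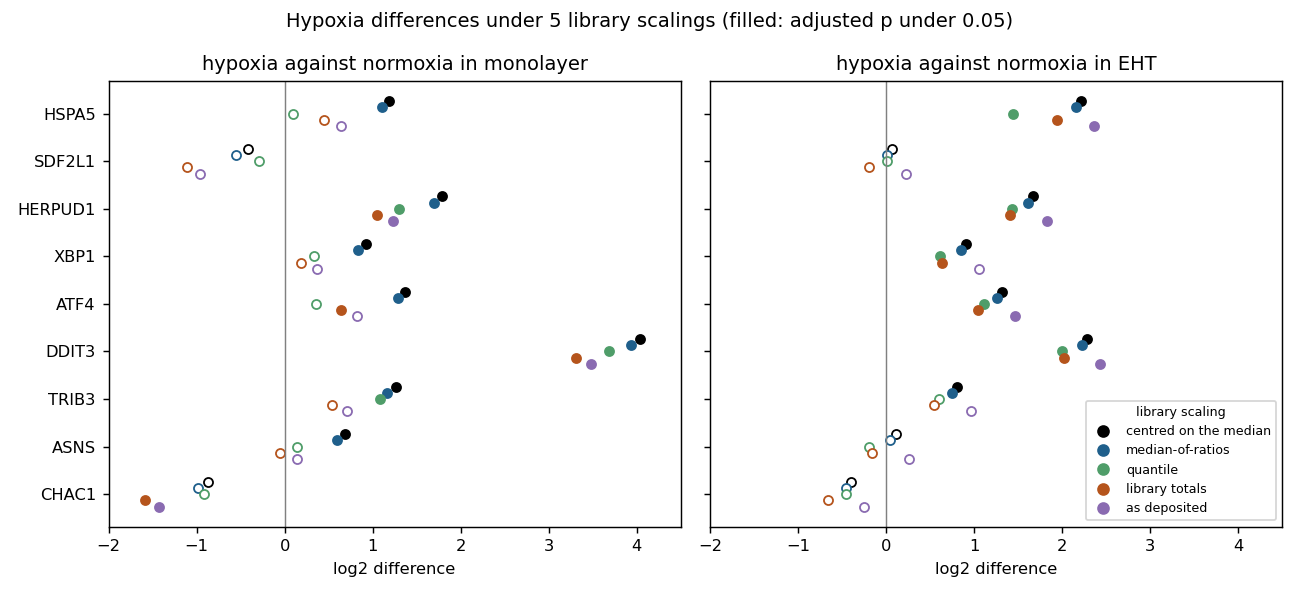
Log2 difference with hypoxia (x axis) of the 9 genes (y axis) in monolayer (left) and EHT (right), each computed under 5 library scalings (colours); filled points passed an adjusted p of 0.05. Points of DDIT3 lie between 3.31 and 4.04 in monolayer under every scaling, whereas those of ASNS spread from -0.05 to 0.69 around and above 0.

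Ratios of the reads of 2 genes within a library do not depend on any scaling of libraries, and gene length cancels when the same ratio is compared between libraries. They are given as a description, without a test. Reads of DDIT3 per 1000 reads of ATF4 were 50.2, 52.4 and 53.4 in monolayer normoxia and 342, 364 and 331 in monolayer hypoxia. In EHT they were 189, 210 and 214 in normoxia and 417, 391 and 408 in hypoxia. The 4 groups did not overlap and each was narrow, EHT hypoxia replicate 3 included, so DDIT3 and ATF4 transcripts differed unequally between the hypoxia and normoxia groups and between culture formats.

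ASNS had the opposite direction against ATF4. ASNS per 1000 ATF4 reads went from 243, 222 and 248 to 135, 147 and 162 in monolayer and from 540, 488 and 437 to 205, 171 and 266 in EHT. In both cultures the hypoxia libraries lay below the normoxia libraries. TRIB3 per 1000 ATF4 reads was 44.5, 47.0 and 59.6 in monolayer normoxia and 45.4, 52.6 and 44.8 in monolayer hypoxia, which overlapped. In EHT TRIB3 per 1000 ATF4 reads was 191, 157 and 154 in normoxia and 97.2, 111 and 154 in hypoxia, where replicate 3 stood at the level of the lowest normoxia library.

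Within the ER lumen, SDF2L1 had 11.8, 12.8 and 7.75 reads per 1000 HSPA5 reads in monolayer normoxia and 3.58, 2.80 and 3.14 in monolayer hypoxia. In EHT it had 17.2, 21.3 and 21.5 in normoxia and 3.23, 4.61 and 5.77 in hypoxia. Every hypoxia library lay below every normoxia library. HSPA5 per 1000 XBP1 reads overlapped between normoxia (8061, 6229 and 8483) and hypoxia (8951, 7710 and 10683) in monolayer, and in EHT hypoxia it reached 8263, 17320 and 39179 against 7241, 7006 and 7397 in EHT normoxia. XBP1 itself was nearly equal among those EHT hypoxia libraries. HERPUD1 per 1000 XBP1 reads was 510, 542 and 651 in monolayer normoxia, 972, 988 and 1159 in monolayer hypoxia, 1087, 1220 and 1087 in EHT normoxia and 1263, 1814 and 3085 in EHT hypoxia.

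**Figure D4:**
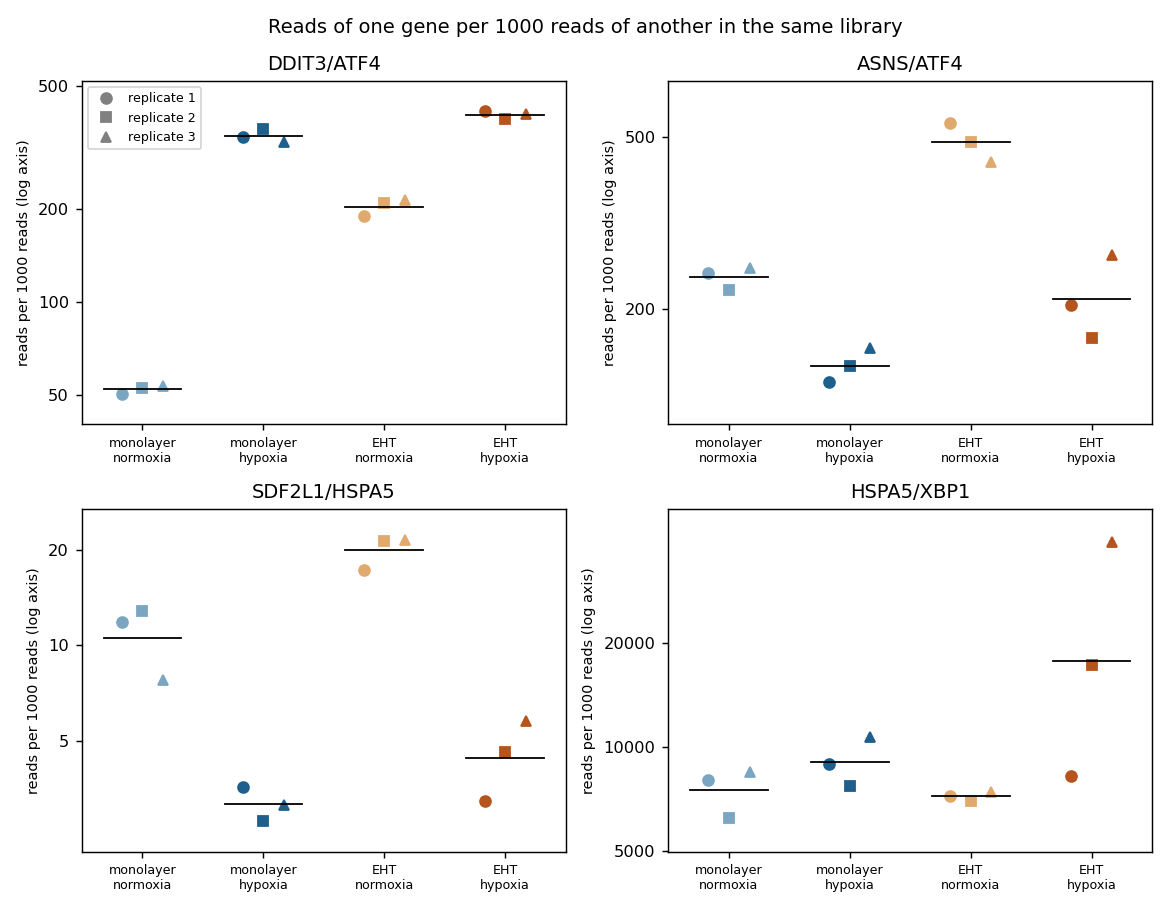
Reads of 1 gene per 1000 reads of another in the same library (y axis, log scale) by group (x axis); marker shapes are replicates and the line is the geometric mean of a group. DDIT3/ATF4 separates the 4 groups from 50.2 to 417, ASNS/ATF4 and SDF2L1/HSPA5 are lower in hypoxia than in normoxia of the same culture, and HSPA5/XBP1 fans out in EHT hypoxia up to 39179.

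Over the 12 libraries, the centred values of HSPA5 were most like those of HSP90B1, the ER member of the HSP90 chaperones (Pearson r = 0.97), PIGA (0.96) and SPAG9 (0.96). DDIT3 was most like RORA (0.99), LMAN1, a cargo receptor between ER and Golgi (0.99), and SNX8 (0.99). ASNS was most like MTO1 (0.95), MAN1B1, a mannosidase of ER quality control (0.94), and SIL1, an exchange factor for HSPA5 (0.93). Among the members HSPA5 correlated with HERPUD1 at 0.93 and with CHAC1 at 0.20, and DDIT3 correlated with XBP1 at 0.92, with SDF2L1 at 0.09 and with CHAC1 at -0.24. These correlations describe the same 12 libraries in 4 groups, share their centring and carry no test.

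Other genes of the pathway were taken from 4 lists, and each count is to be read against the share of all 12084 genes called in the same comparison. On the centred values those shares were given above. Under library totals 9.33% of all genes were called higher and 49.8% lower with hypoxia in monolayer, 13.4% and 25.1% with hypoxia in EHT, 10.9% and 36.3% in EHT against monolayer in normoxia, and 21.5% and 17% in hypoxia. For the interaction they were 25.4% and 5.83%. Without EHT hypoxia replicate 3 the shares were 24.7% and 19.3% with hypoxia in EHT, 26.6% and 22.2% between formats in normoxia and 15.2% and 18.5% for the interaction. Without centring 2.69% of all genes were called higher in EHT than in monolayer in normoxia and 25.6% lower, and in hypoxia 5.02% and 7.83%.

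Of the integrated stress response targets, 34 of 35 could be tested. Hypoxia in monolayer raised 20, or 58.8% against 27.8% of all genes, and lowered 0 (median 0.80), led by PPP1R15A, the phosphatase subunit that restores eIF2 (2.64), the seryl-tRNA synthetase SARS (1.76) and SLC3A2, the heavy chain of amino acid exchangers (1.98). In EHT hypoxia raised 14, or 41.2% against 19.5%, and lowered 0 (median 0.53), led by DDIT4, an inhibitor of the growth kinase mTORC1 (3.65), PPP1R15A (1.68) and the cysteinyl-tRNA synthetase CARS (1.08). Under library totals the counts were 11 higher and 7 lower in monolayer and 9 higher and 2 lower in EHT (32.4% and 20.6%, and 26.5% and 5.88%), and without EHT hypoxia replicate 3 they were 13 and 4 in EHT. PPP1R15A was called in both cultures under library totals too (1.91 and 1.41).

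EHT in normoxia had 20 of these 34 targets higher than monolayer and 1 lower (median 0.72). These were 58.8% and 2.94%, beside 22.8% and 18.5% of all genes. GDF15, a secreted stress cytokine, was higher by 3.38 ± 0.33 (limma adjusted p = 1.1e-05), the mitochondrial folate enzyme ALDH1L2 by 2.26 and the stress-induced chromatin protein NUPR1 by 1.84, and DDIT4 fell by 1.30. Under library totals 15 were higher and 3 lower, and on deposited values 3 and 1. In hypoxia 10 were higher, SLC38A2, an amino acid transporter (0.66), ALDH1L2 (1.29) and JDP2 (1.06) with the smallest p, and 3 lower, EPRS (-0.47), DDIT4 (-0.89; -0.61, adjusted p = 0.0792, without EHT hypoxia replicate 3) and SARS (-0.44). The counts in hypoxia were 29.4% and 8.82%, beside 18.4% and 19.7% of all genes. The hypoxia response was smaller in EHT for 8 of 34 and larger for 0. The 8 were 23.5%, beside 14.1% of all genes with a lower interaction. GDF15 had the smallest p (interaction -2.56 ± 0.47, adjusted p = 0.00239), followed by SLC3A2 (-1.14) and NUPR1 (-1.74), and all 3 were also called under library totals (-2.10, -0.68 and -1.28). Under library totals 3 were smaller and 2 larger, and without EHT hypoxia replicate 3 there were 12 and 1.

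Of the ER chaperones and folding enzymes 18 of 19 were tested. ERO1A, the oxidase that passes oxidising power to protein disulfide isomerase and a known hypoxia-induced gene, rose by 3.80 ± 0.19 in monolayer (limma adjusted p = 9.02e-08) and by 4.45 ± 0.19 in EHT (adjusted p = 3.93e-08). In monolayer hypoxia raised 8 and lowered 0, among them CREB3L2, a transcription factor of secretory capacity (1.53), and the disulfide isomerase P4HB (1.56), and under library totals 4 were higher and 5 lower. The 8 were 44.4%, beside 27.8% of all genes. Under library totals 22.2% higher and 27.8% lower stand beside 9.33% and 49.8% of all genes. In EHT hypoxia raised 6, with the co-chaperone DNAJB9 (1.53) and CREB3L2 (0.71) following ERO1A, and lowered 1, the ER reductase DNAJC10 (-1.67), with 5 and 2 under library totals and 5 and 3 without EHT hypoxia replicate 3. On centred values these were 33.3% and 5.56%, beside 19.5% and 16% of all genes. Without EHT hypoxia replicate 3 they were 27.8% and 16.7%, near the 24.7% and 19.3% of all genes. EHT had 8 higher in normoxia and 0 lower, among them DNAJB9 (1.92), ERP44 (1.05) and DNAJC10 (1.59), against 6 and 1 under library totals and 13 and 0 without EHT hypoxia replicate 3. The 8 were 44.4%, beside 22.8% of all genes. In hypoxia EHT had 7 higher, among them DNAJB9 (1.31), ERP44 (0.69) and CRELD2 (2.08; 1.22 without EHT hypoxia replicate 3), and 1 lower, CREB3L2 (-0.57). These were 38.9% and 5.56%, beside 18.4% and 19.7% of all genes. The interaction was called lower for DNAJC10 (-1.70) and CREB3L2 (-0.83; -0.35, adjusted p = 0.280, under library totals), and for 9 genes without EHT hypoxia replicate 3. On centred values that was 11.1% of the list, under the 14.1% of all genes. Without EHT hypoxia replicate 3 it was 50%, beside 18.5% of all genes.

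Genes of ER-associated degradation and of translocation into the ER were mostly higher in EHT. Of 23 listed, 20 were tested, and 17 were higher in EHT in normoxia and 0 lower (median 0.90), with SEC61G, a subunit of the translocation channel (1.07), SSR1, part of the translocon (1.11), and WFS1 (1.69) first by p. The 17 were 85%, beside 22.8% of all genes. In hypoxia 13 were higher and 0 lower (median 0.99), led by SERP1 (1.43), the retrotranslocation protein DERL2 (1.38) and the ubiquitin ligase SYVN1 (1.38). The 13 were 65%, beside 18.4% of all genes. Under library totals these counts were 12 and 16 higher, and on deposited values they were 0 and 5, with 0 lower in each. Hypoxia raised 10 and lowered 0 in monolayer, with the coat protein SEC24D (1.14), the retrieval receptor KDELR3 (1.09) and the mannosidase-like EDEM1 (1.23) first. It raised 10 and lowered 0 in EHT as well, with SYVN1 (1.49), EDEM1 (1.26) and DERL2 (0.98) first. Those were 50% in each culture, beside 27.8% of all genes in monolayer and 19.5% in EHT. Under library totals the hypoxia counts were 2 higher and 8 lower in monolayer, where 40% lower stands beside 49.8% of all genes. In EHT they were 5 and 3, or 25% and 15% beside 13.4% and 25.1% of all genes, and 7 and 5 without EHT hypoxia replicate 3. SEC24D (-0.70) and KDELR3 (-0.76) had a smaller hypoxia response in EHT, and under library totals these stood at -0.23 and -0.30 and were not called. They were 10% of the list, under the 14.1% of all genes with a lower interaction.

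Of the stress sensors and translation control genes 13 of 16 were tested. EIF2AK3, which encodes PERK, rose with hypoxia by 0.77 ± 0.16 in monolayer (limma adjusted p = 0.00154; 0.04, adjusted p = 0.803, under library totals) and by 0.88 ± 0.16 in EHT (adjusted p = 9.53e-04; 0.63 under library totals). ERN1, which encodes IRE1, was higher in EHT in normoxia (1.50 ± 0.29, adjusted p = 0.00142) and in hypoxia (1.21 ± 0.29, adjusted p = 0.00608), and it rose with hypoxia in EHT by 0.80 (adjusted p = 0.0480; 0.49, adjusted p = 0.147, without EHT hypoxia replicate 3). ATF6B, a relative of ATF6, fell by 0.76 in monolayer and by 0.45 in EHT. Hypoxia in monolayer raised 4, with EIF2B2 (0.96) and the antioxidant regulator NFE2L2 (0.81) beside EIF2AK3, and lowered 2, ATF6B and EIF2B5 (-0.53). These shares, 30.8% and 15.4%, were near those of all genes, 27.8% and 18.6%. In EHT it raised 2 and lowered 2, MBTPS1, the protease that cleaves ATF6 (-0.90), and ATF6B, or 15.4% each way beside 19.5% and 16% of all genes. Under library totals 0 were higher and 8 lower in monolayer and 1 and 6 in EHT, and 49.8% and 25.1% of all genes were called lower under that scaling.

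In normoxia EHT had 4 of these 13 genes higher than monolayer and 0 lower, with ERN1, NFE2L2 (0.79) and EIF2B2 (0.51) first, against 2 higher and 3 lower under library totals and 7 and 1 without EHT hypoxia replicate 3. The 4 were 30.8%, beside 22.8% of all genes. Under library totals 15.4% higher and 23.1% lower stand beside 10.9% and 36.3% of all genes. In hypoxia 4 were higher, with ATF6B (0.54), EIF2B5 (0.52) and ERN1 first, and 2 lower, EIF2B4 (-0.54) and EIF2B3 (-0.50). The counts in hypoxia were 30.8% and 15.4%, beside 18.4% and 19.7% of all genes. The interaction was called for EIF2B5 (0.72) and EIF2B4 (-0.60; -0.13 under library totals). That is 7.69% each way, under the 10.3% higher and 14.1% lower of all genes.

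**Figure D5:**
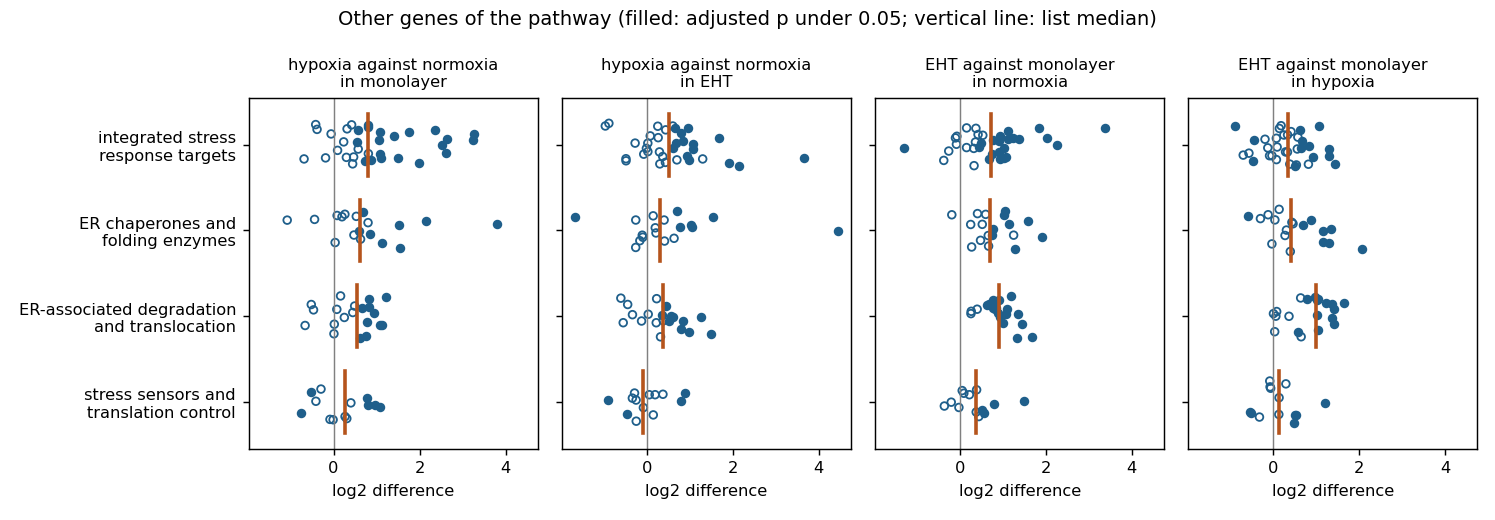
Log2 difference (x axis) of each tested gene of the 4 pathway lists (y axis; 34, 18, 20 and 13 genes) in the 4 comparisons of groups; filled points passed an adjusted p of 0.05 and the vertical line is the median of a list. Genes of ER-associated degradation and translocation lie to the right of 0 in both comparisons of EHT with monolayer, with medians of 0.90 and 0.99, and ERO1A is the isolated point at 3.80 and 4.45 in the hypoxia panels.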

How the data were processed

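The authors deposited 1 table of variance-stabilised values on a log2 scale. The submitters' processing notes name HISAT2, featureCounts and DESeq2. Versions, build and gene models: not given in the sources used here. Every gene with 0 reads carries the lowest value, 3.00. Total RNA libraries were sequenced on the Ion Proton, per the labels. Inverting the transformation returned whole reads, to within 0.01 of a read, for 100% of the values of each library. These reads gave the totals, CPM and ratios.

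Library medians of the deposited values over tested genes ran from 6.98 to 8.75, so each library was centred on its median. The test covered the 12084 genes whose mean exceeded the lowest value by 1 or more. With limma 3.58.1 (R 4.3.3), group means were estimated from the 12 libraries together, allowing for a mean-variance trend (prior degrees of freedom 4.77, infinite without centring), and p-values were adjusted by Benjamini-Hochberg over all genes tested in each comparison, with a threshold of 0.05. The fit was also run on simulated counts. Those had the same spread setting in every group and few changed genes, so they do not bear on groups of unequal spread. For genes of few reads the transformation shrinks a fold change.

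The members and lists were chosen with earlier results of these data known. Named besides the members are up to 3 genes per list, comparison and direction with the smallest p among those called, and the 3 genes most correlated with HSPA5, DDIT3 and ASNS. Alternatives were no centring, quantile normalization, voom on recovered reads, 2 filters, array weights, blocking on the replicate number, fitting only the groups compared, and leaving out each library. Scaling by median-of-ratios and by library totals was added after seeing the data. Promoter and protein sequences were not used here. Figures were drawn with matplotlib 3.10.9.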

Additional observations from a re-analysis of the deposited data

Results flagged for a closer look

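The hypoxia response of DDIT3 differed between the cultures by the test of the difference itself, with an interaction of -1.76 on the log2 scale (limma adjusted p = 6.64e-04, n = 3 per group). DDIT3 was higher in 3 of 3 hypoxia libraries than in every normoxia library of the same culture, in both cultures. When 1 library was left out the interaction ran from -1.92 (monolayer normoxia replicate 3) to -1.52 (monolayer normoxia replicate 1), and it was called each time.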

How the results depend on the processing

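For the 45 differences of the members, 981 recalculations gave 847 with the same direction and side of the threshold, 70 that lost a call, 18 that gained one and 46 that turned direction; 2 of the 46 came from a called difference and 0 were called after turning. The cause was not tested. Without centring, 2945 genes were called with hypoxia in monolayer against 5615 (535 higher and 2410 lower, against 3362 and 2253), 1128 in EHT against 4292 (858 and 270, against 2360 and 1932), 1553 between formats in hypoxia against 4602 (607 and 946, against 2227 and 2375) and 1249 for the interaction against 2956 (1147 and 102, against 1248 and 1708). Between formats in normoxia they were 325 higher and 3099 lower without centring and 1323 and 4389 under library totals, against 2750 and 2234. Library totals gave 1128 and 6021 with hypoxia in monolayer, 1618 and 3033 in EHT, 2603 and 2058 between formats in hypoxia and 3075 and 705 for the interaction. Median-of-ratios gave 2894 and 2917 with hypoxia in monolayer, 2311 and 2988 between formats in normoxia and 1647 and 1616 for the interaction. Array weights gave 4753 interaction calls.

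Of the 9 genes, those called with hypoxia in monolayer numbered 3 without centring, 3 after quantile normalization and 4 under library totals. CHAC1, called lower, was among those without centring and under library totals. Over all genes 4.43% were called higher and 19.9% lower without centring, and 9.33% and 49.8% under library totals. The share of all genes after quantile normalization is not given here, so that count has no background beside it. Without centring 0 of the 9 were called between formats in normoxia, 3 in hypoxia and 0 for the interaction. The shares of all genes called without centring were 2.69% higher and 25.6% lower in normoxia and 5.02% and 7.83% in hypoxia. For the interaction they were 9.49% and 0.844%. Array weights gave 2 of the 9 for the interaction, and their count over all genes is given above. Leaving out 1 library gave 3 to 5 between formats in hypoxia and 1 to 2 for the interaction. Over all 12084 genes it gave 3401 to 4683 calls between formats in hypoxia and 2096 to 4076 for the interaction.

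Values that turned direction with hypoxia were ASNS in monolayer under library totals (-0.046), SDF2L1 in EHT with voom (-0.14), array weights (-0.31) and library totals (-0.19), and ASNS in EHT after quantile normalization (-0.19), array weights (-0.12) and library totals (-0.16). Between formats in normoxia HSPA5 (-0.30), XBP1 (-0.24) and CHAC1 (-0.12) turned without centring and HSPA5 (-0.054) after quantile normalization. In hypoxia DDIT3 turned under library totals (0.041) and ATF4 after quantile normalization (0.0068). The interaction turned without centring for ATF4 (0.64), XBP1 (0.69), HERPUD1 (0.58), TRIB3 (0.25) and ASNS (0.12), after quantile normalization for ATF4 (0.76), XBP1 (0.28) and HERPUD1 (0.13), and under library totals for ATF4 (0.41), XBP1 (0.45), HERPUD1 (0.35) and TRIB3 (0.0039). XBP1 also turned with voom (0.015), a filter of 2 (0.043) and median-of-ratios (0.014).

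Leaving out 1 library, hypoxia differences in EHT ran from -0.64 to 0.77 for SDF2L1, -0.13 to 0.23 for ASNS and -0.96 to 7.5e-06 for CHAC1. Between formats in hypoxia they ran from -0.15 to 0.046 for DDIT3 and -0.020 to 0.35 for ASNS. The interaction ran from -0.23 to 0.18 for ATF4, -0.21 to 0.12 for XBP1, -0.46 to 0.17 for HERPUD1, -0.23 to 1.19 for SDF2L1 and -0.082 to 0.88 for CHAC1.

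With the replicate block 5574 and 4223 genes were called with hypoxia in monolayer and EHT, 4976 and 4591 between formats in normoxia and hypoxia, and 2887 for the interaction, and all 45 member differences kept their call. Deviations of same-numbered libraries correlated at 0.00138, 0.0522 and 0.132 between the monolayer groups and at 0.0361, 0.328 and 0.275 between the EHT groups. Those of different-numbered libraries ran from -0.212 to 0.198 and from -0.321 to 0.185. In EHT the same-numbered values of replicates 2 and 3 lay above all different-numbered ones. The main fit did not take the numbers as pairs, and whether they are pairs was not settled. SDF2L1 and CHAC1 rest on few reads, and 3 libraries a group limit what a difference of their size can show. The SE of 0.48 for SDF2L1 also took in the spread of EHT hypoxia (SD 1.41). Its SDs were 0.095 in monolayer normoxia and 0.10 in monolayer hypoxia.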
